A study of Sus scrofa with 24 samples.

Results

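The developmental step from 35 to 63 days post conception (dpc) was described in longissimus dorsi muscle, the long muscle of the back, of German Landrace pig fetuses. The comparison rests on 6 of the 24 arrays of the series: 3 RNA pools at 35 dpc and 3 at 63 dpc, named a, b and c at each stage and chosen by their titles. Of the 24123 probe sets on the Affymetrix porcine array, the 124 controls were set aside and 23999 were compared. Both groups share breed (German Landrace, DL in the labels), tissue and labelling from 500 ng of total RNA, and no treatment is named. The labels name neither the number nor the sex of the fetuses in a pool, so p-values rest on the spread among pools alone, which may be technical. A description field calls even the fetal pools peripubertal, while title, source and stage all name the fetal day. A letter K of unknown meaning stands in the titles of the younger group. The other arrays hold DL pools at 91 dpc and from adults, and Pietrain (Pi) pools at the same 4 stages. They enter only where named.

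Fetal muscle is built in waves. Myoblasts, steered by the MyoD family of transcription factors, first fuse into a small set of primary fibres, and a larger set of secondary fibres then forms around them as motor axons, vessels and connective tissue grow in. Fibres at first use embryonic isoforms of the contractile proteins and later turn on fast or slow adult isoforms together with the enzymes of energy supply. A dissected piece of young fetal muscle can hold cells of other tissues. In bulk RNA, fewer cells of a type and less RNA per cell cannot be told apart, which holds for every result below.

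Values are log2 signals as the authors deposited them. The table had been quantile-normalised, so that a change is always relative to the other probe sets of the array and a change in total mRNA cannot be seen. A difference was called where limma's moderated test, adjusted by Benjamini-Hochberg over all 23999 probe sets, gave p under 0.05. Values after ± are standard errors of the fitted log2 change unless marked SD. The background ceiling, the highest of 23 control probe sets without a target in pig RNA, was 2.31 to 2.45 on the 6 arrays. Where all 3 pools of a stage lay at or below it, the fold is given as a lower bound against that ceiling.

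Between 35 and 63 dpc, 8756 probe sets changed (36.5%), 4359 of them higher (18.2%) and 4397 lower (18.3%) at 63 dpc. Large falls outnumbered large rises: 82 called probe sets fell and 8 rose by 64-fold or more, and 292 fell and 135 rose by 16-fold or more. The pools of the 2 stages did not overlap for 12772 probe sets (53.2%). At 2-fold or more the numbers were close, 2634 lower and 2652 higher. The median called probe set moved by 1.21 on the log2 scale. For 667 probe sets the 63 dpc pools alone were all at background, of which 244 were called lower, and for 1423 the 35 dpc pools alone were, of which 187 were called higher. The split between rises and falls depends on the scaling: 49.8% of calls were rises on the deposited values, and 16.7% after the arrays were scaled to their hybridisation controls (control scaling), which moved the median of all probe sets by -0.50.

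**Figure D1:**
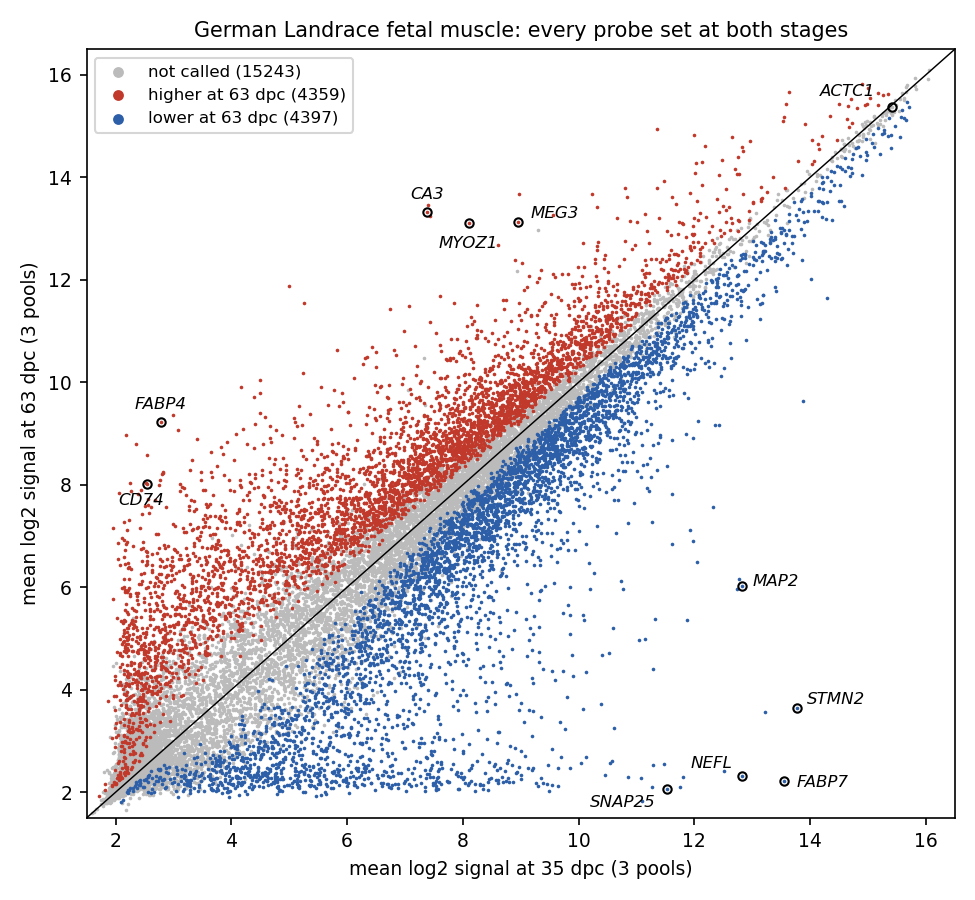
Mean log2 signal of every probe set at 35 dpc (x axis) against 63 dpc (y axis), 3 pools each, with called rises in red, called falls in blue and the rest in grey; the line marks equal signal. The falls reach from signals above 13 at 35 dpc to the background near 2 at 63 dpc, as for FABP7, while no rise spans as much.

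The pools of a stage were alike. Correlations over the probe sets of an array, themselves no replicates, were 0.990 to 0.992 within 35 dpc, 0.980 to 0.982 within 63 dpc and 0.906 to 0.919 between the stages. The residual standard deviation of an array was 0.235 to 0.269 at 35 dpc and 0.348 to 0.365 at 63 dpc. The 3' minus 5' signal of the beta-actin control, a measure of RNA integrity and labelling, was 2.12 to 2.62 at 35 dpc and 1.21 to 1.43 at 63 dpc, so it differed with stage; for the GAPDH control it was 0.52 to 0.80 and 0.67 to 0.72. Its part in the results was not tested.

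The array annotation gave 1 symbol to 10069 probe sets, which stand for 6765 genes, and 4799 of the called probe sets have no single symbol. Of the 6765 genes, each taken at its brightest probe set, 2988 changed (44.2%), 1611 higher (23.8%) and 1377 lower (20.4%), with a median change of 0.02. The counts of the gene lists below are to be read against these shares. Genes are named by a rule (the 15 largest rises and falls, the 5 largest changes of each list and a fixed panel). Some genes the rule selects are not described below, among them TNC, BMP4, IFIT1 and VTN, whose calls were lost without at least 1 pool. A few further list members, UCHL1, GAP43, MBP, PKM, CCNB1, GYS1 and TCAP among them, were picked after their values were seen.

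Muscle genes were among the brightest at both stages, as the tissue label has it. The cardiac alpha-actin ACTC1, the main sarcomeric actin of early fetal muscle, read 15.33, 15.51 and 15.40 at 35 dpc and 15.38, 15.49 and 15.29 at 63 dpc, among the highest signals of the array. MYL1, the fast-fibre essential myosin light chain, stood at 14.69, 14.76 and 14.68 at 35 dpc and 15.53, 15.59 and 15.45 at 63 dpc. Genes of neurons were also very bright at 35 dpc: summed over the 16 measured genes of the neuronal cytoskeleton and axon, the log2 of the linear signal was 15.64 to 15.80 at 35 dpc and 12.53 to 12.65 at 63 dpc. The 35 dpc pools therefore held both muscle and neural transcripts, and the neural ones are described first because they changed most.

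FABP7, the fatty acid binding protein of radial glia and neural progenitors, showed the largest change of all. Its signal was 13.61, 13.44 and 13.60 at 35 dpc and 2.13, 2.31 and 2.23 at 63 dpc, a drop of at least 2398-fold (adjusted p = 1.23e-06). NEFL, the light neurofilament chain of axons, went from 12.83 ± 0.11 to 2.31 ± 0.14 (SD, n = 3), and a second probe set fell by 6.14 on the log2 scale. The 2 groups lay far apart in both, with all 35 dpc pools among the brighter signals of the array and the 63 dpc pools at or near background.

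STMN2, which regulates microtubules in growing axons, read 13.96, 13.64 and 13.72 at 35 dpc and 3.83, 3.92 and 3.18 at 63 dpc (log2 change -10.13 ± 0.23, adjusted p = 1.87e-05). It stayed above background in all 3 later pools. MAP2, the dendritic microtubule protein, was 12.78, 12.85 and 12.86 at 35 dpc and 6.31, 5.60 and 6.16 at 63 dpc (log2 change -6.81 ± 0.20, adjusted p = 4.08e-05), so that a clear signal remained at 63 dpc. The neuronal kinesin heavy chain KIF5C changed by -7.02 ± 0.16 (adjusted p = 1.85e-05), and the neuronal RNA-binding protein ELAVL4 was at least 148-fold lower (adjusted p = 1.23e-06). UCHL1, a deubiquitinase abundant in neurons, went from 12.74 to 5.96 and GAP43, a protein of growth cones, from 11.88 to 5.36. Of the 16 measured cytoskeleton and axon genes, 12 fell and 2 rose, with a median change of -6.20. The 2 that rose were THY1 (1.32) and MAP1B (2.67), which fibroblasts and other cells also use. Which cells gave their rise was not tested.

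Genes of the synapse and of transmitter release moved the same way: 15 of 23 fell, 0 rose (1 without 63 dpc pool a) and the median was -4.15. SNAP25, part of the membrane fusion complex of synaptic vesicles, was 11.73, 11.34 and 11.49 at 35 dpc and 2.07, 2.08 and 2.07 at 63 dpc, at least 585-fold lower (adjusted p = 3.46e-06). The calcium sensor of vesicle release, SYT1, was at least 65.3-fold lower (adjusted p = 4.16e-06) and secretogranin SCG2, a protein of neuroendocrine granules, at least 126-fold lower (adjusted p = 1.53e-05). GAD1, which makes the inhibitory transmitter GABA, read 8.32, 7.99 and 8.34 at 35 dpc and 2.02, 2.02 and 2.01 at 63 dpc, at least 59.3-fold lower (adjusted p = 8.51e-06). The neuropeptide NPY was at least 65.2-fold lower (adjusted p = 1.98e-06), although its second probe set did not pass (0.027). In each of these genes every 35 dpc pool was above every 63 dpc pool.

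Reticulon RTN1, of the endoplasmic reticulum of neurons, read 11.81, 11.68 and 11.75 at 35 dpc and 2.19, 2.07 and 2.06 at 63 dpc, a drop of at least 686-fold. VSNL1, a neuronal calcium sensor, changed by -7.39 ± 0.21; LAMP5, a neuronal membrane protein, was at least 134-fold lower and DNAJC6, which uncoats clathrin vesicles, changed by -6.93 ± 0.10. Their adjusted p-values lay between 1.23e-06 and 3.63e-05. CXADR, a cell adhesion protein that also serves as a virus receptor, was 9.62, 9.56 and 9.77 at 35 dpc and 2.47, 2.47 and 2.48 at 63 dpc (log2 change -7.18 ± 0.07, adjusted p = 2.2e-06), and its second probe set fell by 6.49. The gene listed as LOC100738087 was at least 493-fold lower (adjusted p = 1.23e-06). None of the pools of these genes overlapped between the stages.

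Glial genes were split. Of 21 measured genes of neural progenitors, glia and Schwann cells, 11 fell and 4 rose (median -0.36, against 0.02 for all genes; 3 higher and 17 lower under control scaling). Besides FABP7, the glial glutamate transporter SLC1A2 read 7.51, 7.11 and 7.54 at 35 dpc and 2.78, 2.56 and 2.65 at 63 dpc (log2 change -4.72 ± 0.14, adjusted p = 4.3e-05). The oligodendrocyte lineage factor OLIG1 was at least 15.3-fold lower (adjusted p = 6.43e-05), and the membrane protein GPM6B changed by -3.25 ± 0.40 (adjusted p = 0.0029) and its second probe set by -2.19. CLU, a secreted chaperone, changed by -3.39 ± 0.49 (adjusted p = 0.00502). Going the other way, myelin basic protein MBP rose from 2.76 to 5.81 (adjusted p = 0.00838). The other risers were CRYAB, APOE and GLUL, which muscle or macrophages also express, though the source of their rise was not tested. SOX10, which marks Schwann cells, was near background at both stages (2.60 to 2.57).

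Genes of neuron specification, transcription factors and a neurotrophin receptor, were lower in 5 of 8 measured cases and higher in 0 (median -1.98; 0 higher and 8 lower under control scaling). MEIS1, a partner of HOX proteins, read 11.07, 10.83 and 11.02 at 35 dpc and 9.11, 8.69 and 9.14 at 63 dpc (log2 change -1.99 ± 0.15, adjusted p = 0.000664), and its second probe set changed by -2.72. MEIS2 changed by -2.73 ± 0.24 (adjusted p = 0.001), but its second probe set moved by 1.33, so its direction depends on the probe set. LHX1, a factor of spinal interneurons and motor neurons, was at least 4.08-fold lower (adjusted p = 0.000765) and the neurotrophin receptor NTRK3 at least 5.73-fold lower (adjusted p = 0.00357), the latter with a second probe set at -0.48. The other call, POU3F1, was lost without 35 dpc pool c or without any 1 of the 63 dpc pools (adjusted p up to 0.103), and its second probe set did not pass (0.0094).

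**Figure D2:**
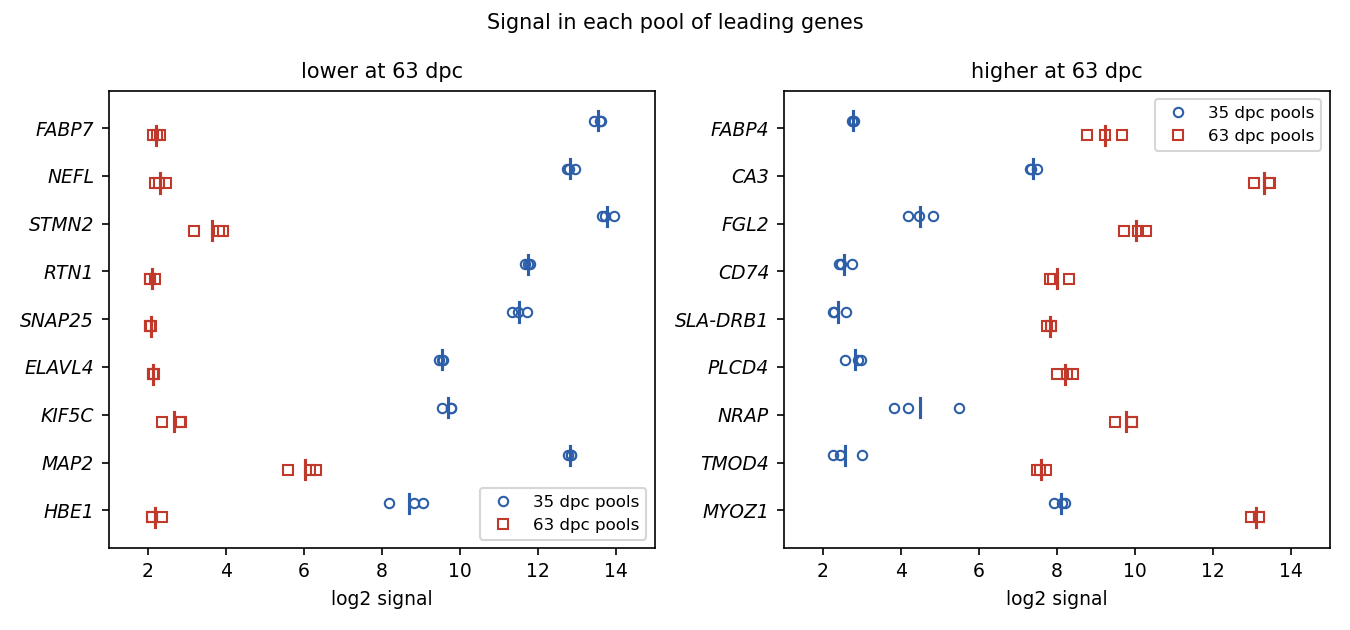
Log2 signal (x axis) of leading genes in each pool, with 35 dpc as blue circles and 63 dpc as red squares; the short vertical lines are group means of 3 pools. In the left panel NEFL, RTN1 and SNAP25 go from above 11 to the background near 2, while MAP2 keeps a signal of 5.60 to 6.31; in the right panel FABP4 rises from 2.75 to 2.81 to 8.78 to 9.66.

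Contractile genes rose from an already high base. All 8 measured genes of the fast sarcomere and fast fibres were higher at 63 dpc, with a median change of 2.48. MYOZ1, which anchors calcineurin at the Z-disc of fast fibres, read 8.14, 7.94 and 8.22 at 35 dpc and 13.18, 13.18 and 12.97 at 63 dpc (log2 change 5.01 ± 0.11, adjusted p = 1.53e-05). The fast IIa myosin heavy chain MYH2 was 4.61, 5.62 and 5.01 at 35 dpc and 8.90, 8.92 and 8.95 at 63 dpc (log2 change 3.84 ± 0.27, adjusted p = 0.000491). Both had groups that stood well apart.

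Fast troponin T, TNNT3, was 11.77, 12.02 and 12.17 at 35 dpc and 14.72, 14.84 and 14.93 at 63 dpc (log2 change 2.84 ± 0.12, adjusted p = 0.000127), and fast troponin I, TNNI2, changed by 2.12 ± 0.10 (adjusted p = 0.000141). ATP2A1, the calcium pump of fast fibres, changed by 4.08 ± 0.13 (adjusted p = 5.07e-05) and its second probe set by 4.98. The fast light chains MYL1 (0.82 ± 0.06, adjusted p = 0.000564) and MYLPF (0.75) and fast troponin C TNNC2 (0.93) moved by less than 1 log2 unit. Those 3 were near the top of the measured range already at 35 dpc. The myosin heavy chain genes are close copies of one another, so a probe set may take signal from a neighbour.

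Slow-fibre genes rose by less: 8 of 10 were higher and 1 lower, with a median of 0.81 (5 higher and 2 lower under control scaling, median 0.32). MYH7, the slow myosin heavy chain, read 12.46, 12.52 and 12.45 at 35 dpc and 14.37, 14.42 and 14.20 at 63 dpc (log2 change 1.85 ± 0.08, adjusted p = 0.000103). Its partner MYL3, the slow essential light chain, changed by 1.95 ± 0.11 (adjusted p = 0.000288), the slow regulatory light chain MYL2 by 0.94 ± 0.10 (adjusted p = 0.002) and the slow myosin-binding protein MYBPC1 by 1.78 ± 0.09 (adjusted p = 0.000181). CASQ2, the calcium store protein of slow fibres, showed the largest rise of the list (log2 change 2.71 ± 0.15, adjusted p = 0.000232), with its second probe set at 2.04 and not called. The 1 that fell was slow troponin T, TNNT1 (14.27, 14.26 and 14.08 at 35 dpc and 13.93, 13.89 and 13.85 at 63 dpc; log2 change -0.31 ± 0.07, adjusted p = 0.0237), a call lost without 35 dpc pool a or b or 63 dpc pool b or c (adjusted p up to 0.0817). Whether fast and slow genes differed in their rise was not tested.

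Embryonic isoforms moved little. MYL4, the embryonic and atrial light chain, read 14.20, 14.27 and 14.18 at 35 dpc and 14.80, 14.81 and 14.80 at 63 dpc (log2 change 0.59 ± 0.05, adjusted p = 0.000863), a small rise well outside the spread of the pools. Cardiac troponin T, TNNT2, an early isoform in skeletal muscle, changed by 0.40 ± 0.08 (adjusted p = 0.0169), lost without 35 dpc pool a or c (adjusted p up to 0.059) and turned to -0.10 by scaling to hybridisation controls. ACTC1 did not pass (log2 change -0.03 ± 0.08, adjusted p = 0.829), nor did cardiac troponin I, TNNI3 (log2 change -1.03 ± 0.40, adjusted p = 0.108). The smooth muscle actin ACTA2, also a transient actin of myoblasts, gave 0.25 ± 0.07 (adjusted p = 0.0492), which no longer passed without 1 of 5 of the pools (all but 63 dpc pool c; adjusted p up to 0.146) and turned to -0.24 under control scaling. In all, 3 of 5 rose, and 1 did without 35 dpc pool a or pool c; the list had 0 higher and 2 lower under control scaling. The actin genes are near-identical in coding sequence, and ACTA1 had no probe set under its symbol.

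Structural genes of the sarcomere and Z-disc were higher in 25 of 30 cases and lower in 0, with a median of 1.6 (23 higher and 3 lower under control scaling; 1 lower without 63 dpc pool b). TMOD4, the skeletal cap of thin filament ends, was near background in the earlier pools and read 3.0, 2.43 and 2.26 at 35 dpc and 7.49, 7.56 and 7.73 at 63 dpc (log2 change 5.03 ± 0.21, adjusted p = 0.000114). XIRP1 and NRAP, which act where new myofibrils are assembled and attached, read 3.57, 4.63 and 3.58 at 35 dpc and 8.87, 8.57 and 9.09 at 63 dpc (log2 change 4.92 ± 0.34, adjusted p = 0.000504) and 4.19, 5.50 and 3.82 at 35 dpc and 9.93, 9.50 and 9.93 at 63 dpc (log2 change 5.28 ± 0.47, adjusted p = 0.0011). In all 3 genes the stages were separate, although the 35 dpc pools of XIRP1 and NRAP spread over more than 1 log2 unit. Desmin, DES, the intermediate filament of muscle, was 10.85, 10.84 and 10.81 at 35 dpc and 13.69, 13.57 and 13.57 at 63 dpc (log2 change 2.77 ± 0.06, adjusted p = 1.44e-05), but a second, dimmer probe set changed by -2.41, and the direction thus depends on the probe set. The titin cap TCAP rose from 7.92 to 10.11. HRC, a calcium-binding protein of the sarcoplasmic reticulum, changed by 3.56 ± 0.19 (adjusted p = 0.000239), and the ankyrin-repeat ubiquitin ligase adaptor ASB11 by 5.16 ± 0.43 (adjusted p = 0.000918). As these genes rose, the neuronal sum given above fell, and its part in their relative rise was not tested.

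Calcium handling genes rose in 7 of 8 cases (0 lower, median 2.33; 6 higher and 1 lower under control scaling). RYR1, the calcium release channel of skeletal muscle, read 8.93, 9.06 and 9.08 at 35 dpc and 12.32, 12.35 and 12.31 at 63 dpc (log2 change 3.30 ± 0.06, adjusted p = 1.08e-05), with no overlap and little spread at either stage. Its relative RYR3, found in developing muscle, was 2.86, 4.11 and 3.19 at 35 dpc and 7.37, 7.70 and 7.49 at 63 dpc (log2 change 4.14 ± 0.35, adjusted p = 0.000898), and its second probe set changed by 1.16 without passing. Phospholamban, PLN, which restrains the slow calcium pump, changed by 4.34 ± 0.46 (adjusted p = 0.0019; second probe set 0.68, not called), and sarcolipin, SLN, a similar regulator, by 2.42 ± 0.08 (adjusted p = 5.65e-05). The store-operated channel ORAI1 changed by 2.24 ± 0.23 (adjusted p = 0.00171). PLCD4, a phospholipase C that cleaves inositol lipids, was among the largest rises of the annotated genes (2.91, 2.56 and 2.99 at 35 dpc and 8.0, 8.26 and 8.41 at 63 dpc; log2 change 5.40 ± 0.16, adjusted p = 4.47e-05).

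Of 6 measured genes of the neuromuscular junction and sarcolemma, 3 rose and 3 fell (all 6 without overlap, a state shared by 59.0% of all genes; 1 higher and 3 lower under control scaling). NCAM1, the neural cell adhesion molecule of immature fibres and of nerve, read 11.19, 11.12 and 11.17 at 35 dpc and 9.30, 9.06 and 9.39 at 63 dpc (log2 change -1.91 ± 0.10, adjusted p = 0.00021; second probe set -1.37). Dystrophin, DMD, which ties the fibre's skeleton to the membrane, was 5.16, 5.14 and 5.52 at 35 dpc and 6.23, 6.95 and 6.56 at 63 dpc (log2 change 1.31 ± 0.22, adjusted p = 0.00828). The acetylcholine receptor subunit CHRNA1 changed by 0.73 ± 0.15 (adjusted p = 0.0157), a call lost without 35 dpc pool a or c (adjusted p up to 0.0574), and without pool c only 1 of the list rose. The annexin ANXA1, a membrane repair protein, changed by -0.76 ± 0.12 (adjusted p = 0.00687).

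The regulators of muscle formation split, with 7 of 24 higher and 6 lower (median -0.02), shares near those of all genes; there were 4 higher and 13 lower under control scaling, and the median was -0.063 without 35 dpc pool a and 0.016 without pool b. MYF6, the MyoD family member of maturing fibres, read 6.74, 6.69 and 6.68 at 35 dpc and 9.68, 9.62 and 9.76 at 63 dpc (log2 change 2.98 ± 0.06, adjusted p = 1.18e-05), while a second probe set did not pass (0.084). MYOD1, the master regulator of myoblasts, was 8.54, 8.43 and 8.55 at 35 dpc and 9.45, 9.40 and 9.91 at 63 dpc (log2 change 1.08 ± 0.15, adjusted p = 0.00501). MYF5, which acts earlier in the lineage, did not pass, with pools that overlapped (9.15, 9.79 and 9.81 at 35 dpc and 9.96, 9.72 and 8.98 at 63 dpc; log2 change -0.03 ± 0.33, adjusted p = 0.955). TEAD4, a MyoD-dependent factor of differentiation, changed by 2.36 ± 0.09 (adjusted p = 7.49e-05).

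Myostatin, MSTN, which limits muscle growth, was lower at 63 dpc in every pool: 9.29, 9.29 and 8.92 at 35 dpc and 7.50, 7.64 and 7.29 at 63 dpc (log2 change -1.69 ± 0.15, adjusted p = 0.001; second probe set -1.06). Its receptors diverged. ACVR2A read 6.94, 6.91 and 7.35 at 35 dpc and 3.74, 4.59 and 4.54 at 63 dpc (log2 change -2.78 ± 0.28, adjusted p = 0.00154; second probe set -1.85), while ACVR2B left background, at least 3.64-fold higher (adjusted p = 0.000181). ID4, an inhibitor of basic helix-loop-helix factors that is also active in neural progenitors, was 5.24, 5.67 and 6.53 at 35 dpc and 2.78, 2.13 and 2.12 at 63 dpc (log2 change -3.47 ± 0.39, adjusted p = 0.00225).

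Growth factor and imprinted genes gave some of the brightest signals. IGF2, the main fetal growth factor, read 12.97, 12.87 and 12.67 at 35 dpc and 14.54, 14.44 and 14.57 at 63 dpc (log2 change 1.68 ± 0.10, adjusted p = 0.000268), and 10 of its 13 probe sets were called higher and 0 lower. Its clearing receptor IGF2R was 6.10, 5.57 and 5.15 at 35 dpc and 7.57, 7.67 and 7.08 at 63 dpc (log2 change 1.83 ± 0.30, adjusted p = 0.00755). MEG3, a maternally expressed noncoding RNA abundant in fetal muscle, rose from 8.85, the lowest 35 dpc pool, and 9.05, the highest, to between 13.02 and 13.26 (log2 change 4.18 ± 0.09, adjusted p = 1.76e-05; second probe set 2.01). All 3 rose with no overlap between the stages.

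Against this, DIRAS3, an imprinted small GTPase that restrains growth, fell and read 11.45, 11.09 and 11.31 at 35 dpc and 4.71, 4.80 and 3.68 at 63 dpc (log2 change -6.89 ± 0.34, adjusted p = 0.000176), and NNAT, an imprinted protein of developing neurons, changed by -1.86 ± 0.21 (adjusted p = 0.00239). IGFBP5, the binding protein of muscle differentiation, did not pass (log2 change 0.23 ± 0.17, adjusted p = 0.383). In all, 6 of 19 were higher and 4 lower (median 0.23, turning to -0.27 under control scaling, with 5 higher and 9 lower). The lower count was 2 without 35 dpc pool c or 63 dpc pool a, and the median 0.097 without 35 dpc pool c, 0.11 without 63 dpc pool b and 0.070 without 63 dpc pool c.

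The enzymes of creatine and energy buffering rose strongly, 6 of 7 measured. CA3, the carbonic anhydrase of slow and fatty tissue, was 7.31, 7.35 and 7.49 at 35 dpc and 13.46, 13.44 and 13.07 at 63 dpc (log2 change 5.94 ± 0.13, adjusted p = 1.69e-05; second probe set 5.81). Muscle creatine kinase, CKM, read 11.19, 11.28 and 11.60 at 35 dpc and 14.84, 14.98 and 15.03 at 63 dpc (log2 change 3.59 ± 0.13, adjusted p = 7.27e-05). The muscle AMP deaminase AMPD1 was 8.57, 8.53 and 8.74 at 35 dpc and 12.69, 12.66 and 12.69 at 63 dpc (log2 change 4.07 ± 0.07, adjusted p = 8.51e-06). Each of these 3 differed by more than 3 log2 units with no overlap.

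The creatine transporter SLC6A8 changed by 1.94 ± 0.21 (adjusted p = 0.00198) and GAMT, which makes creatine, by 1.28 ± 0.17 (adjusted p = 0.00359). The brain-type creatine kinase CKB was the 1 that fell (log2 change -0.27 ± 0.06, adjusted p = 0.0276). That small change was lost without any 1 of 5 pools (all but 63 dpc pool b; adjusted p up to 0.0753).

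Sugar metabolism showed opposite changes within enzyme families. The muscle enolase ENO3 read 9.88, 9.22 and 9.56 at 35 dpc and 13.12, 13.32 and 13.36 at 63 dpc (log2 change 3.71 ± 0.19, adjusted p = 0.000188), and the neuronal enolase ENO2 read 9.61, 9.39 and 9.06 at 35 dpc and 2.90, 3.01 and 4.5 at 63 dpc (log2 change -5.88 ± 0.48, adjusted p = 0.000822); the general form ENO1 did not pass (-0.40). The brain aldolase ALDOC fell and read 9.87, 9.70 and 9.64 at 35 dpc and 6.33, 5.30 and 4.89 at 63 dpc (log2 change -4.23 ± 0.39, adjusted p = 0.00117). Muscle glycogen phosphorylase PYGM, which frees glucose units from glycogen, was 9.27, 9.40 and 9.40 at 35 dpc and 12.10, 12.24 and 12.26 at 63 dpc (log2 change 2.84 ± 0.07, adjusted p = 2.61e-05; second probe set 3.47). Muscle glycogen synthase GYS1 rose from 6.64 to 9.09 and pyruvate kinase PKM fell from 9.18 to 8.25. FBP2, the muscle fructose bisphosphatase, changed by 2.53 ± 0.25 (adjusted p = 0.00156). Over the list, 15 of 29 rose and 6 fell (median 0.41, turning to -0.09 under control scaling, with 7 higher and 12 lower).

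Mitochondrial genes changed by less. Of 75 genes of oxidative phosphorylation and the citric acid cycle, 35 rose and 12 fell (median 0.27, or -0.23 under control scaling, where 11 rose and 22 fell). The adenine nucleotide carriers moved apart: SLC25A4, the muscle form, was 10.24, 10.44 and 10.25 at 35 dpc and 12.50, 12.57 and 12.66 at 63 dpc (log2 change 2.27 ± 0.08, adjusted p = 7.31e-05), and SLC25A5, the form of dividing cells, was 9.94, 9.95 and 9.97 at 35 dpc and 8.85, 8.55 and 8.5 at 63 dpc (log2 change -1.32 ± 0.11, adjusted p = 0.000795). OGDH, of the citric acid cycle, changed by 1.47 ± 0.13 (adjusted p = 0.00119) and the complex I subunit NDUFB11 by 1.23 ± 0.10 (adjusted p = 0.000845). Another complex I gene, NDUFS6, changed by 1.24 ± 0.12 (adjusted p = 0.00131), with its second probe set at -0.21. COX7A1, the muscle isoform of a cytochrome oxidase subunit, changed by 1.22 ± 0.21 (adjusted p = 0.00963). PPARGC1A, a coactivator of mitochondrial genes, showed overlapping pools (5.95, 5.85 and 6.17 at 35 dpc and 5.35, 5.68 and 6.96 at 63 dpc; log2 change 0.01 ± 0.45, adjusted p = 0.994).

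Fatty acid oxidation genes rose in 18 of 33 cases and fell in 2 (median 0.68; 9 higher and 6 lower under control scaling, median 0.18). CPT1B, the muscle gate for fatty acids into mitochondria, read 3.68, 4.34 and 2.62 at 35 dpc and 7.95, 7.48 and 8.28 at 63 dpc (log2 change 4.36 ± 0.49, adjusted p = 0.00227). HADH, of the oxidation spiral, changed by 1.67 ± 0.08 (adjusted p = 0.000177) and the uncoupling protein UCP2 by 2.67 ± 0.23 (adjusted p = 0.000921). The 2 that fell were the fatty acid activating enzymes ACSL3 (log2 change -1.91 ± 0.07, adjusted p = 8.49e-05) and ACSL4 (log2 change -1.84 ± 0.08, adjusted p = 0.000122). The heart and muscle fatty acid binding protein FABP3 gave 0.68 ± 0.14 (adjusted p = 0.0172), lost without 35 dpc pool a or b or 63 dpc pool c (adjusted p up to 0.064).

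**Figure D3:**
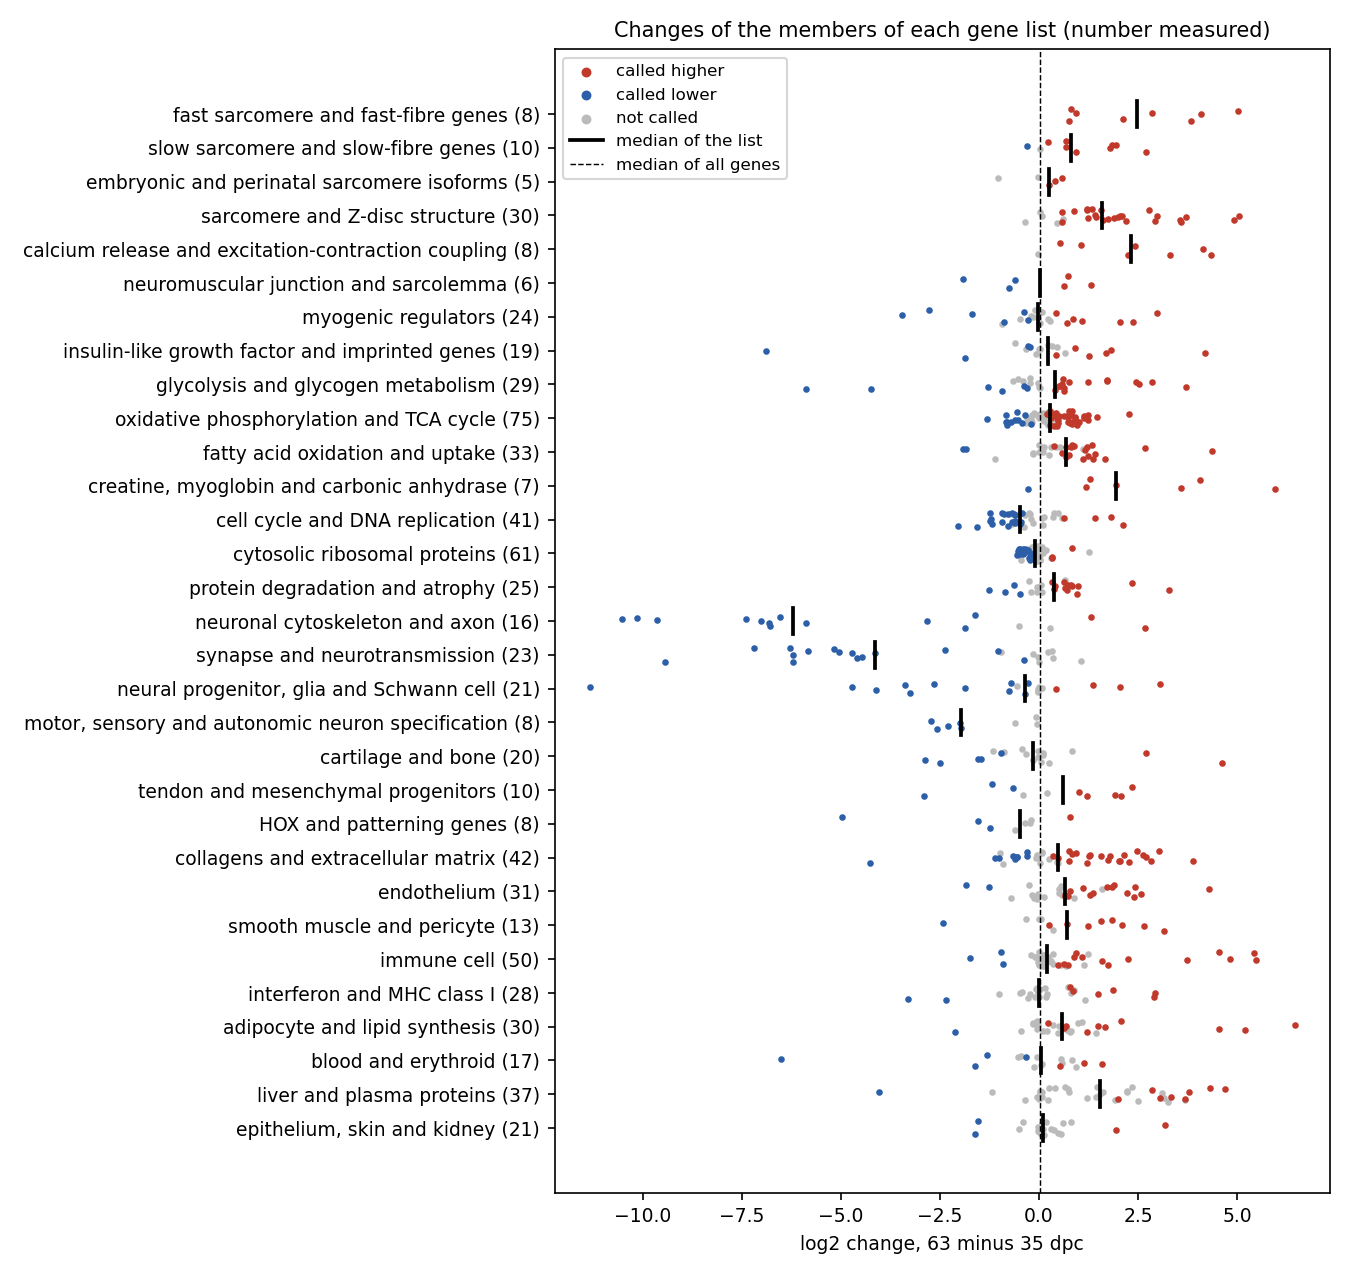
Log2 change from 35 to 63 dpc (x axis) of each measured member of the 31 gene lists (y axis, number measured in brackets), red where called higher, blue where called lower and grey where not called; thick bars are list medians and the dashed line is the median of all genes, 0.02. The fast-fibre (2.48), calcium (2.33) and creatine (1.94) lists lie to the right, and the neuronal cytoskeleton (-6.20) and synapse (-4.15) lists far to the left.

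Genes of the cell cycle and DNA replication fell in 20 of 41 cases and rose in 4 (median -0.47; 3 higher and 30 lower under control scaling). TOP2A, the topoisomerase of dividing cells, read 11.59, 11.67 and 11.58 at 35 dpc and 10.02, 9.97 and 10.13 at 63 dpc (log2 change -1.57 ± 0.07, adjusted p = 0.00011). NDC80, of the kinetochore, was 7.52, 7.96 and 7.71 at 35 dpc and 6.16, 5.63 and 5.30 at 63 dpc (log2 change -2.04 ± 0.25, adjusted p = 0.00297), and cyclin CCNB1, which drives mitosis, fell from 10.13 to 8.90. PCNA, the clamp of DNA polymerase, did not pass (log2 change -0.25 ± 0.12, adjusted p = 0.171). The cell cycle brake CDKN1A, induced when myoblasts leave the cycle, rose: 10.98, 11.05 and 11.00 at 35 dpc and 13.15, 13.05 and 13.20 at 63 dpc (log2 change 2.12 ± 0.06, adjusted p = 4.1e-05). The phosphatase CDC25B, which promotes entry into mitosis, rose too (log2 change 1.82 ± 0.09, adjusted p = 0.0002). The lower count was 13 without 35 dpc pool a, and the higher count 2 without 35 dpc pool c or 63 dpc pool b.

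Cytosolic ribosomal protein genes mostly moved by small amounts, with 18 of 61 lower, 3 higher and a median of -0.10 (0 higher and 52 lower under control scaling, median -0.60). RPL15 read 14.95, 15.07 and 14.94 at 35 dpc and 14.38, 14.52 and 14.39 at 63 dpc (log2 change -0.56 ± 0.07, adjusted p = 0.00309) and RPS24 15.22, 15.33 and 15.47 at 35 dpc and 14.84, 14.72 and 14.85 at 63 dpc (log2 change -0.53 ± 0.08, adjusted p = 0.00707). RPS25 changed by -0.50 ± 0.06 (adjusted p = 0.00226), with a second probe set at 0.17. The largest changes of the list were rises. RPS27L was called higher, by 0.76 to 0.92 with 1 pool left out at a time, and the largest, 1.26, was not called. The count of lower genes was 10, 8 and 10 without 35 dpc pool a, b and c, and 11 without 63 dpc pool a. Many of these genes have processed copies that could share probes.

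Genes of protein degradation rose in 13 of 25 cases and fell in 4 (median 0.39, turning to -0.11 under control scaling, with 4 higher and 9 lower). Calpain CAPN3, the muscle-specific protease, was 6.5, 6.62 and 6.43 at 35 dpc and 9.67, 9.85 and 9.91 at 63 dpc (log2 change 3.29 ± 0.09, adjusted p = 3.38e-05; second probe set 6.44). FBXO32, a muscle ubiquitin ligase, read 5.76, 5.73 and 5.51 at 35 dpc and 7.91, 7.64 and 8.46 at 63 dpc (log2 change 2.34 ± 0.23, adjusted p = 0.00146; second probe set 2.79). The general calpain CAPN1 changed by 0.96 ± 0.06 (adjusted p = 0.000419), its inhibitor calpastatin, CAST, by 0.85 ± 0.11 (adjusted p = 0.00345) and the autophagy receptor SQSTM1 by 0.99 ± 0.11 (adjusted p = 0.00199). GABARAPL1 had the largest fall of the list (log2 change -1.27). Its call was lost without any 1 of 5 pools (all but 63 dpc pool a, adjusted p up to 0.126). Without 35 dpc pool a or b, 2 fell.

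Matrix genes rose in 22 of 42 cases and fell in 9 (median 0.48, or -0.01 under control scaling, with 18 higher and 16 lower). LAMB2, the laminin chain of the mature basal lamina and the synapse, was 7.97, 8.29 and 7.97 at 35 dpc and 11.20, 11.04 and 11.07 at 63 dpc (log2 change 3.03 ± 0.11, adjusted p = 7.92e-05). TNXB, a tenascin of connective tissue, changed by 2.71 ± 0.14 (adjusted p = 0.000201), PRELP, a basement membrane anchor, by 2.83 ± 0.23 (adjusted p = 0.000871) and MMP14, a membrane-bound collagenase, by 3.88 ± 0.45 (adjusted p = 0.00238). COL8A1, a short-chain collagen, went the other way, 7.74, 7.39 and 7.67 at 35 dpc and 3.52, 4.17 and 2.32 at 63 dpc (log2 change -4.26 ± 0.49, adjusted p = 0.00241), but its second probe set moved by 0.46. Periostin, POSTN, a matrix protein of growing connective tissue, was bright at both stages, 14.41, 14.41 and 14.44 at 35 dpc and 13.68, 13.97 and 13.94 at 63 dpc (log2 change -0.55 ± 0.09, adjusted p = 0.00807; second probe set 0.63). COL3A1 did not pass (log2 change -0.99 ± 0.61, adjusted p = 0.292); 63 dpc pool c read 5.77, inside the 35 dpc range, and without it the gene was called lower.

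Markers of tendon and mesenchymal progenitors were mixed, 5 of 10 higher and 3 lower (5 higher and 3 lower under control scaling). Among them CD34, a surface protein of progenitors and endothelium, read 5.68, 5.59 and 5.63 at 35 dpc and 8.02, 7.74 and 8.17 at 63 dpc (log2 change 2.34 ± 0.12, adjusted p = 0.00021) and the matrix protein dermatopontin, DPT, 9.75, 9.90 and 10.10 at 35 dpc and 11.67, 11.89 and 11.96 at 63 dpc (log2 change 1.92 ± 0.13, adjusted p = 0.000411). EGR1, an early response and tendon factor, changed by 2.07 ± 0.17 (adjusted p = 0.000809; second probe set 0.36, not called) and THBS2, a matricellular protein, by 1.2 ± 0.07 (adjusted p = 0.000273). ALDH1A1, which makes retinoic acid, changed by -2.90 ± 0.31 (adjusted p = 0.00186). Without 35 dpc pool a or b the lower count was 1.

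Of 20 measured cartilage and bone genes, 2 rose and 5 fell (2 higher and 13 lower under control scaling). COMP, a matrix protein of cartilage and tendon, was 2.91, 3.67 and 3.85 at 35 dpc and 7.65, 8.20 and 8.40 at 63 dpc (log2 change 4.61 ± 0.33, adjusted p = 0.000535), but its second probe set did not pass (-0.095). BGLAP, osteocalcin, rose at least 5.55-fold (adjusted p = 0.00289) from background, while HAPLN1, the link protein of cartilage, changed by -2.87 ± 0.33 (adjusted p = 0.00246; second probe set -2.62). The cartilage collagen COL2A1 gave -2.50 ± 0.52 (adjusted p = 0.0168), with a second probe set at 0.0033 and a call lost without 35 dpc pool a or b (adjusted p up to 0.0623). The cartilage factor SOX9 was near background at both stages (2.33 to 2.17). The lower count was 3 without 35 dpc pool a or 63 dpc pool b.

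Among 8 measured HOX and patterning genes, 1 rose and 3 fell, and 1 fell without 35 dpc pool a (0 higher and 6 lower under control scaling). The 1 that rose, HOXD8, was not called without 35 dpc pool b or c or 63 dpc pool a or b (adjusted p up to 0.0903). HOXB7, a positional factor of the trunk, read 9.49, 9.12 and 9.53 at 35 dpc and 4.40, 3.30 and 5.51 at 63 dpc (log2 change -4.98 ± 0.58, adjusted p = 0.00246; second probe set -5.85). HOXA9 changed by -1.24 ± 0.23 (adjusted p = 0.0126), which was 0.0504 without 35 dpc pool a. HOXA3 did not pass (log2 change -0.61 ± 0.23, adjusted p = 0.105).

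Endothelial genes rose in 15 of 31 cases and fell in 2 (median 0.66; 11 higher and 7 lower under control scaling, median 0.16). TIE1, a receptor of the vessel wall, read 2.77, 2.73 and 1.91 at 35 dpc and 6.82, 7.01 and 6.46 at 63 dpc (log2 change 4.29 ± 0.29, adjusted p = 0.000453). The water channel AQP1, of capillaries and red cells, was 8.29, 8.16 and 7.80 at 35 dpc and 11.06, 10.32 and 10.62 at 63 dpc (log2 change 2.58 ± 0.23, adjusted p = 0.00115; second probe set 1.87). Both groups were separate in each. ESAM, an endothelial adhesion protein, changed by 2.40 ± 0.38 (adjusted p = 0.00699; second probe set 2.79), RAMP2, a receptor partner of vessels, by 2.22 ± 0.06 (adjusted p = 4.1e-05) and von Willebrand factor VWF by 2.42 ± 0.25 (adjusted p = 0.00175), with its second probe set at -0.049. KDR, the main receptor for vascular growth factor, was at background in all 35 dpc pools and read 2.50, 4.99 and 3.78 at 63 dpc, a difference that passed only without 63 dpc pool a (log2 change 1.6 ± 0.64, adjusted p = 0.12). The second KDR probe set was not called either (-0.042).

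Smooth muscle and pericyte genes rose in 8 of 13 cases and fell in 1 (median 0.70; 6 higher and 3 lower under control scaling), with 5 higher without 35 dpc pool b and 2 lower without 63 dpc pool a. Smoothelin, SMTN, of contractile smooth muscle, was 8.07, 8.31 and 8.03 at 35 dpc and 11.21, 11.36 and 11.28 at 63 dpc (log2 change 3.15 ± 0.10, adjusted p = 4.59e-05; second probe set 3.24). Calponin CNN1 changed by 2.64 ± 0.22 (adjusted p = 0.000893) and the adhesion molecule MCAM by 2.08 ± 0.13 (adjusted p = 0.000335; second probe set 1.92). ANGPT1, a vessel-stabilising ligand, fell and read 6.30, 6.24 and 6.13 at 35 dpc and 3.41, 4.24 and 3.77 at 63 dpc (log2 change -2.42 ± 0.22, adjusted p = 0.0012; second probe set -1.81), and its antagonist ANGPT2 rose (log2 change 1.83 ± 0.36, adjusted p = 0.0149), with an adjusted p of 0.0559 without 35 dpc pool b.

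Genes of antigen presentation through MHC class II rose from a very low level. The invariant chain CD74, which loads class II molecules, read 2.75, 2.47 and 2.41 at 35 dpc and 7.91, 7.82 and 8.31 at 63 dpc (log2 change 5.47 ± 0.17, adjusted p = 4.62e-05). SLA-DRA, the pig class II DR alpha chain, was 2.16, 2.19 and 2.16 at 35 dpc and 6.35, 6.94 and 6.87 at 63 dpc, at least 20.2-fold higher (adjusted p = 8.28e-05). SLA-DQB1 was 2.02, 2.02 and 2.11 at 35 dpc and 6.97, 6.44 and 7.18 at 63 dpc, at least 22.2-fold higher (adjusted p = 0.000114). In these genes the 35 dpc pools lay at or near background and the 63 dpc pools far above it.

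SLA-DQA1 changed by 3.75 ± 0.31 (adjusted p = 0.000888) and SLA-DRB1 by 5.43 ± 0.11 (adjusted p = 1.45e-05), although a second probe set of SLA-DRB1 did not pass (-0.011). SLA genes are polymorphic and alike in sequence, so signal may be shared among them. Over the whole immune list, which includes these class II genes, 14 of 50 rose and 3 fell. The median was 0.21, and 0.10 without 63 dpc pool a. It turned to -0.29 under control scaling, with 8 higher and 19 lower. In the list 12 genes were at background at both stages, among them the T cell gene CD3E (2.05 to 2.07). The macrophage scavenger receptor CD163 rose from 5.47 to 6.55 and the signalling adaptor TYROBP from 3.71 to 5.96, while the macrophage receptor MRC1 fell from 7.39 to 6.43. Without any 1 of the 35 dpc pools the lower count was 1. FGL2, a fibrinogen-like protein of macrophages and T cells, rose and read 4.83, 4.18 and 4.47 at 35 dpc and 10.08, 9.73 and 10.30 at 63 dpc (log2 change 5.54 ± 0.23, adjusted p = 0.000102; second probe set 5.32).

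In the class I and interferon list 6 of 28 rose and 2 fell (median 0.01, turning to -0.02 under scaling to the median of detected probe sets and to -0.49 under control scaling, with 4 higher and 12 lower). The lower count was 1 without any 1 of the 35 dpc pools or without 63 dpc pool c, where TAP1, a peptide transporter of the class I pathway, was not called (adjusted p up to 0.093). Class I chains rose, SLA-2 with 5.39, 5.33 and 6.47 at 35 dpc and 8.70, 8.63 and 8.62 at 63 dpc (log2 change 2.92 ± 0.33, adjusted p = 0.0023) and SLA-3 with 2.91 ± 0.54 (adjusted p = 0.012). The interferon-induced antiviral protein MX1 fell, with 6.58, 5.88 and 6.30 at 35 dpc and 3.33, 3.28 and 2.20 at 63 dpc (log2 change -3.32 ± 0.38, adjusted p = 0.00229). The light chain B2M was bright and did not pass (15.66 to 15.67).

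Lipid genes included the largest rise among the annotated genes. FABP4, the fatty acid binding protein of adipocytes, capillaries and macrophages, read 2.77, 2.75 and 2.81 at 35 dpc and 9.66, 9.23 and 8.78 at 63 dpc (log2 change 6.45 ± 0.23, adjusted p = 7.33e-05). AGPAT2, which makes precursors of stored fat, left background and read 1.96, 1.96 and 1.97 at 35 dpc and 7.66, 7.41 and 6.37 at 63 dpc, at least 27.1-fold higher (adjusted p = 0.000464). GPD1, which supplies glycerol phosphate, was 4.55, 3.05 and 5.21 at 35 dpc and 8.58, 8.94 and 8.89 at 63 dpc (log2 change 4.53 ± 0.58, adjusted p = 0.00336). All 3 separated the stages fully, with wide spread among the 35 dpc pools of GPD1.

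FABP5 changed by 1.67 ± 0.17 (adjusted p = 0.00179; second probe set 1.89) and the transcription factor CEBPB, of early fat cell formation, by 2.08 ± 0.17 (adjusted p = 0.000765). The desaturase SCD, which makes oleic acid, fell (10.75, 10.85 and 10.53 at 35 dpc and 8.76, 8.60 and 8.39 at 63 dpc; log2 change -2.13 ± 0.13, adjusted p = 0.000372). The defining fat cell genes ADIPOQ (2.15 to 2.09), PPARG (2.83 to 2.69) and LEP (2.35 to 2.85) stayed at or near background. Of the 30 measured adipocyte and lipid synthesis genes, 10 rose and 1 fell (median 0.57; 7 higher and 7 lower under control scaling, median 0.077), with a summed log2 signal of 12.56 to 12.72 at 35 dpc and 13.15 to 13.39 at 63 dpc.

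Haemoglobin genes fell by unequal amounts, a difference that was not tested. HBE1, the embryonic epsilon chain, read 9.05, 8.19 and 8.84 at 35 dpc and 2.10, 2.11 and 2.36 at 63 dpc (log2 change -6.5 ± 0.24, adjusted p = 8.28e-05). HBB, the beta chain, fell by less and stayed bright, 10.79, 10.89 and 10.58 at 35 dpc and 9.30, 9.26 and 8.88 at 63 dpc (log2 change -1.61 ± 0.15, adjusted p = 0.00121). ALAS2, the first enzyme of haem synthesis in red cells, gave 1.58 ± 0.34 (adjusted p = 0.0198), lost without 35 dpc pool a or b or 63 dpc pool a or c (adjusted p up to 0.0713). Of 17 erythroid genes, 3 rose and 4 fell, 2 without 35 dpc pool a (2 higher and 7 lower under control scaling), and the summed log2 signal was 13.43 to 13.55 at 35 dpc and 13.08 to 13.22 at 63 dpc. The globin genes are close copies and may share probes.

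Plasma protein genes of the liver mostly read higher at 63 dpc (32 of 37, beside 3556 of 6765 of all genes), in amounts that differed between pools. Of the 37, 28 were not called and 9 were at background in all 35 dpc pools. APOC3, an apolipoprotein, read 2.62, 3.71 and 2.27 at 35 dpc and 7.54, 6.80 and 8.35 at 63 dpc (log2 change 4.70 ± 0.56, adjusted p = 0.00261), and albumin, ALB, 4.02, 4.27 and 3.33 at 35 dpc and 8.38, 7.98 and 8.21 at 63 dpc (log2 change 4.32 ± 0.27, adjusted p = 0.000378). SERPINA1, the plasma protease inhibitor, spread widely and did not pass: 10.52, 11.22 and 6.13 at 35 dpc and 13.31, 11.82 and 13.81 at 63 dpc (log2 change 3.69 ± 1.51, adjusted p = 0.127), with 35 dpc pool c more than 4 log2 units below pools a and b. Of 37 measured liver genes, 8 rose (21.6%, beside 23.8% of all genes) and 1 fell (8 higher and 7 lower under control scaling). The median was 1.55, and 0.74 without 63 dpc pool c. The higher count was 3, 4 and 3 without 35 dpc pool a, b and c, 5 without 63 dpc pool a and 15 without 63 dpc pool b; it was 3 in the fit of all 24 arrays and 16 in that of the 18 fetal arrays. The 1 that fell was CPS1, the entry enzyme of the urea cycle (8.74, 9.06 and 8.73 at 35 dpc and 3.60, 4.71 and 6.08 at 63 dpc; log2 change -4.04 ± 0.65, adjusted p = 0.0072). The summed log2 signal of the list was 11.72 to 13.17 at 35 dpc and 13.36 to 15.22 at 63 dpc.

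Epithelial, skin and kidney genes were mostly dim, with 2 of 21 higher and 2 lower (2 higher and 8 lower under control scaling) and a summed log2 signal of 8.86 to 9.33 at 35 dpc and 9.71 to 9.92 at 63 dpc. E-cadherin, CDH1, was 5.0, 4.70 and 5.05 at 35 dpc and 7.90, 7.90 and 8.48 at 63 dpc (log2 change 3.18 ± 0.20, adjusted p = 0.000383), but its second probe set did not pass (0.47). The simple keratin KRT19 changed by 1.95 ± 0.20 (adjusted p = 0.0016). The 2 that fell were DSP (log2 change -1.625) and SPINT2 (-1.53). Their second probe sets, at -0.012 and -0.055, were not called. The epithelial marker EPCAM was near background at both stages (2.38 to 2.70), and KRT18 at background (2.15 to 2.15). Large rises were also seen outside the lists: EGF, a growth factor, read 3.19, 2.53 and 2.53 at 35 dpc and 8.15, 8.08 and 7.76 at 63 dpc (log2 change 5.25 ± 0.23, adjusted p = 0.000125), and RASGEF1A, an activator of small GTPases, was at least 29.4-fold higher (adjusted p = 0.00012). The gene listed as LOC106504372 changed by 5.07 ± 0.30 (adjusted p = 0.000304).

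The DL pools at 91 dpc and from adults place the step in the later course, as a description without a test. Neural genes stayed low: FABP7 stood at 2.25 ± 0.03 at 91 dpc and 2.25 ± 0.07 in adults (SD, n = 3), and SNAP25 at 2.10 ± 0.02 and 2.10 ± 0.02. Fast-fibre genes read higher still, with MYH2 at 13.40 ± 0.10 and 15.46 ± 0.08 and ATP2A1 at 12.36 ± 0.18 and 15.10 ± 0.02. The embryonic light chain MYL4, slightly higher at 63 than at 35 dpc, was at 12.75 ± 0.22 and then 5.24 ± 0.91. TNNT1, slightly lower at 63 dpc, reached 15.31 ± 0.06 in adults.

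Other genes had their highest means before birth. MEG3 was at 12.76 ± 0.48 at 91 dpc and 6.65 ± 0.77 in adults, and IGF2 at 14.60 ± 0.25 and 11.54 ± 0.35. TIE1 went to 8.74 ± 0.18 and then 2.56 ± 0.57. In contrast, the class II gene CD74 stood at 9.74 ± 0.46 and 10.38 ± 0.11. Liver genes were uneven, with ALB at 2.92 ± 0.80 at 91 dpc and 9.09 ± 0.96 in adults. TOP2A was at 9.53 ± 0.36 at 91 dpc and at 3.16 ± 0.22 in adults.

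**Figure D4:**
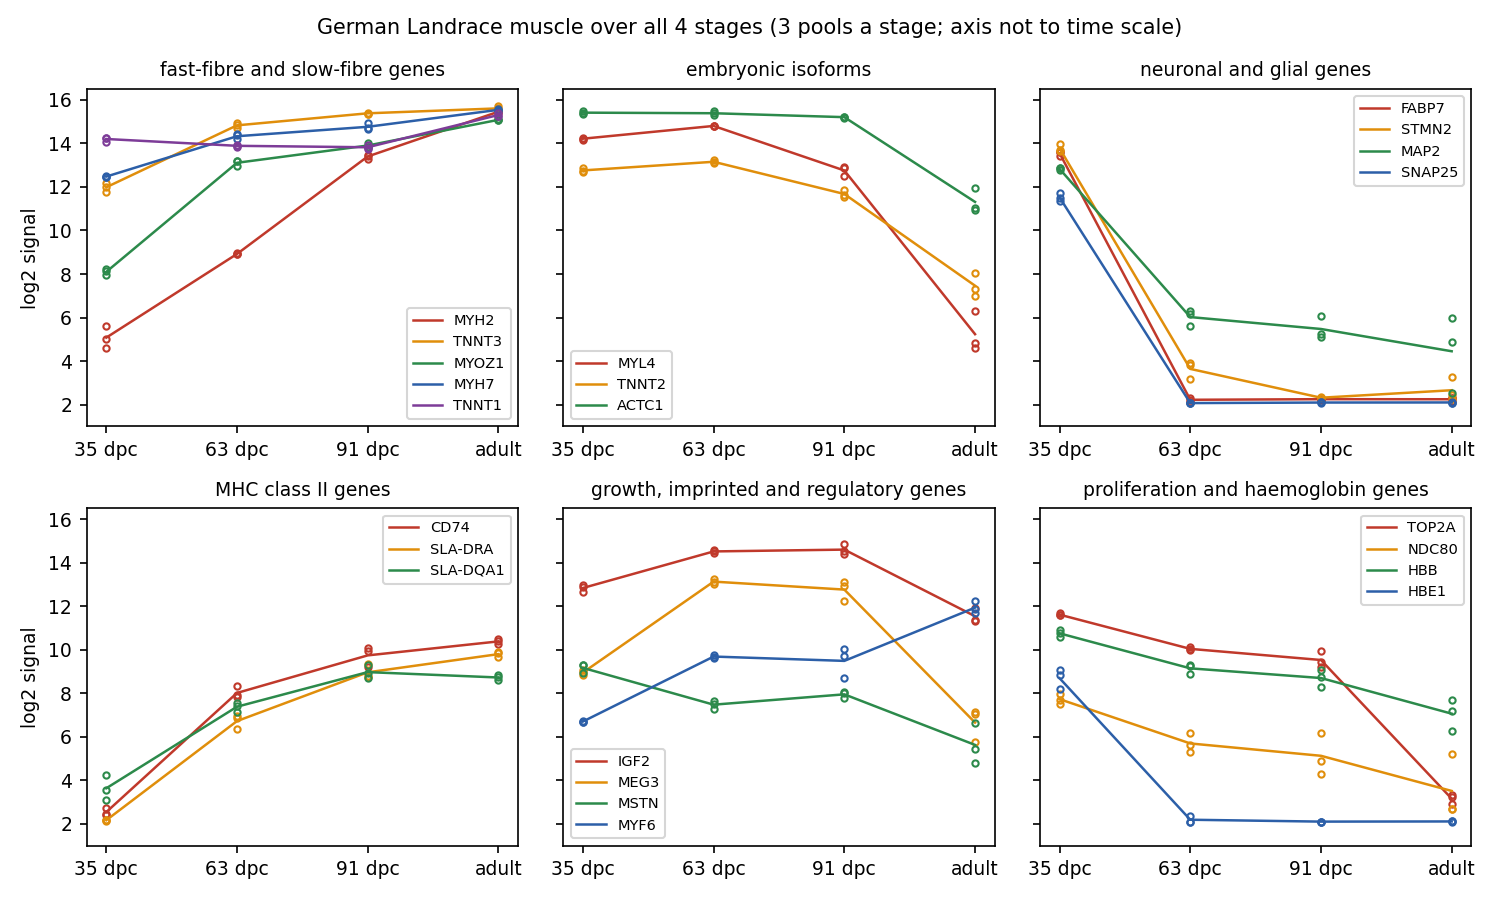
Log2 signal (y axis) of 23 named genes in German Landrace muscle at 35, 63 and 91 dpc and in adults (x axis, not to time scale), with circles for the 3 pools of a stage and lines through the means. FABP7 and SNAP25 are at background from 63 dpc on, MYH2 is higher at each stage up to 15.46 in adults, and MYL4 falls only after 63 dpc, from 14.80 to 12.75 and 5.24.

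The same step in Pietrain, measured on separate arrays, gave 9659 called probe sets. Of the probe sets called in DL, 6431 were called in the same direction in Pi and 76 in the opposite one. That is 73.4% of the DL calls and 66.6% of the Pi calls. A direct test of the breed difference in the step called 1395 probe sets (5.81%), and 604 of the 6765 genes (8.93%). Leaving out 35 dpc pool a, b or c of DL or 35 dpc pool c of Pi brought 1395 down to 819, 788, 851 and 844.

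The arrays of the breeds also differed in their controls at 35 dpc: the GAPDH 3' minus 5' signal was 0.52 to 0.80 in DL and 1.08 to 1.21 in Pi, and the mean hybridisation control signal 10.4 to 10.6 and 9.94 to 10.1. Their part in the breed difference was not tested.

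STMN2 changed by -10.13 in DL and -8.80 in Pi (difference -1.32, adjusted p = 0.0348). For PYGM and RYR1 the step was smaller in DL, with higher DL levels at 35 dpc, while for FBP2 and NDUFS6, also of energy metabolism, the difference of the steps was 3.30 and 1.82. PYGM began at 9.36 ± 0.08 in DL and 8.10 ± 0.11 in Pi (SD, n = 3) and ended at 12.20 ± 0.08 and 12.47 ± 0.06 (difference of the steps -1.52, adjusted p = 0.000734). RYR1 began at 9.03 ± 0.08 and 8.14 ± 0.07 and ended at 12.32 ± 0.02 and 12.50 ± 0.12 (difference -1.06, adjusted p = 0.00209). Of the plasma protein genes, ALB changed by 4.32 in DL (adjusted p of the difference from Pi = 0.000734) and APOC3 by 4.70 (0.00351), while the Pi means were at or near background at both stages, 3.13 and 2.32 for ALB and 2.68 and 2.38 for APOC3.

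**Figure D5:**
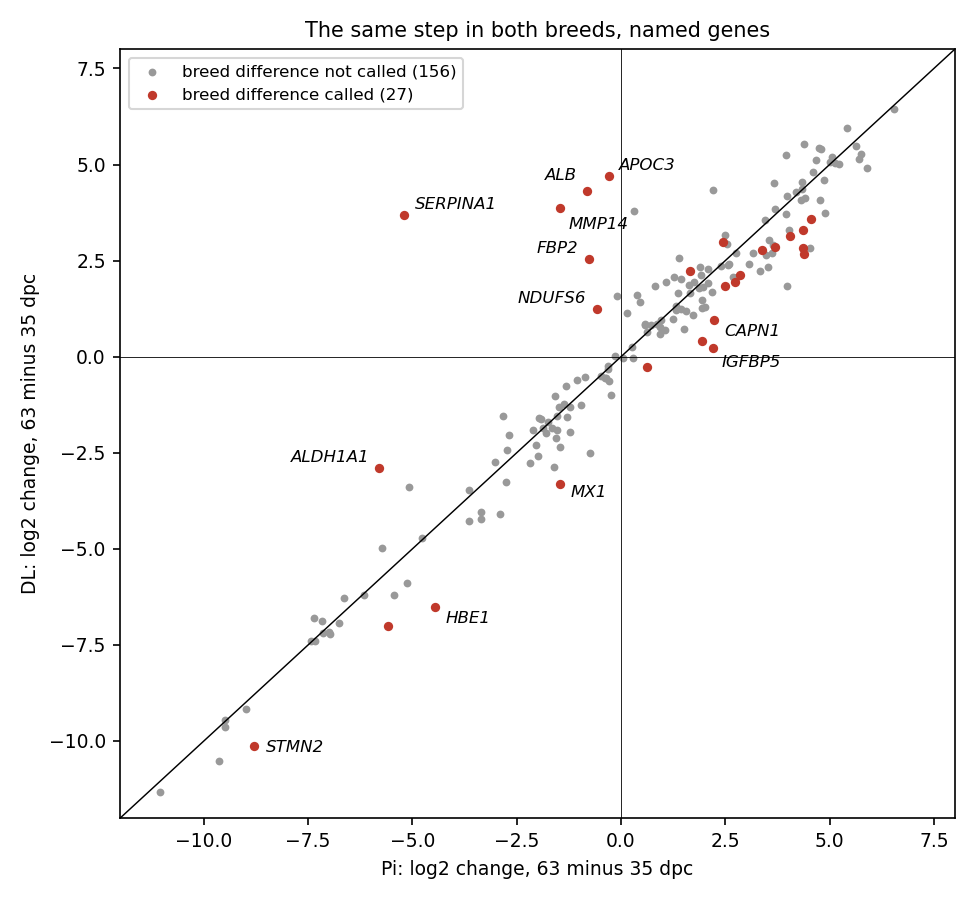
Log2 change from 35 to 63 dpc of the 183 named genes in Pietrain (x axis) and German Landrace (y axis), each from 3 pools a stage, with the 27 genes whose step differed between breeds in red; the line marks equal change. Most genes lie near the line; ALB, APOC3, SERPINA1, MMP14, FBP2 and NDUFS6 lie above 0 on the y axis and below 0 on the x axis, with the Pietrain 63 dpc means of ALB, APOC3 and SERPINA1 (2.32, 2.38 and 2.21) near background.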

How the data were processed

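Longissimus dorsi RNA pools were hybridised to Affymetrix porcine arrays, 1 array a pool. Per the labels' protocols, TRI Reagent extraction was followed by DNaseI, RNeasy columns and labelling as biotin cRNA. The submitters' processing notes name GCOS 1.1.1; neither they nor the labels state the summarisation method or the log base. The authors deposited log2 signals (base 2 is assumed) from 1.60 to 16.10 with identical value distributions on all 24 arrays, so they were quantile-normalised before deposit. Sequencing-type depth has no counterpart on arrays, and 3 pools a stage limit the precision.

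The 6 arrays were fitted with limma 3.58.1 (lmFit and eBayes, R 4.3.3), with p-values adjusted by Benjamini-Hochberg over 23999 probe sets and a threshold of 0.05. Tables and plots used Python 3.11.15, numpy 2.4.6, pandas 2.3.3 and matplotlib 3.10.9. The breed difference is the interaction in a fit of 12 fetal arrays. On simulated data for the German Landrace comparison over 23999 probe sets, the fit called 41.5% of 200 probe sets changed 2-fold and 66% of 200 changed 4-fold. False calls numbered 7 and 8. The simulation changed only 200 probe sets at a time and used the same spread at both stages, while 8756 were called in the data. These shares therefore do not give the recovery in the data.

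A gene is its single-symbol probe set with the highest mean over 24 arrays. Named genes are the 15 largest rises and 15 largest falls among called genes whose pools do not overlap, the 5 largest absolute changes in each of 31 lists (745 of 1314 genes measured) and a panel. Not all of them are described in the text. Members at background at both stages are counted, and a few, such as CD3E and KRT18, were named outside this rule after their values were seen. The members and lists were chosen with earlier results of these data known. Alternatives changed the arrays in the fit, the prior, the filter on dim probe sets, the scaling, the probe set, a replicate block and each pool in turn. No sequences were used here.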

Additional observations from a re-analysis of the deposited data

Results flagged for a closer look

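For 27 of the 183 named genes the step from 35 to 63 dpc differed between German Landrace and Pietrain in limma's test of the interaction, with Benjamini-Hochberg adjustment over all probe sets. Values are the German Landrace change minus the Pietrain change on the log2 scale. In 16 of the 27 the absolute change was larger in Pietrain, and in 7 the signs were opposite. At 35 dpc the GAPDH 3' minus 5' control was 0.52 to 0.80 in German Landrace and 1.08 to 1.21 in Pietrain, and its part in these differences was not tested.

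The following 9 genes had a negative difference: TNNT2 (-1.54, adjusted p = 0.000801), PYGM (-1.52, adjusted p = 0.000734), RYR1 (-1.06, adjusted p = 0.00209), CKM (-0.96, adjusted p = 0.0107), TNNT3 (-0.85, adjusted p = 0.0214), MYL3 (-0.79, adjusted p = 0.018), TNNI2 (-0.74, adjusted p = 0.00802), MYH7 (-0.65, adjusted p = 0.0155) and DES (-0.61, adjusted p = 0.0244). In each of these the German Landrace mean was above the Pietrain mean at 35 dpc. Other muscle genes had a positive difference, MYF6, the regulator of maturing fibres, with 0.54 (adjusted p = 0.0369), and FBP2 and NDUFS6 with the values given below.

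Other negative differences were seen for IGFBP5 (-1.98, adjusted p = 0.00209), UCP2 (-1.72, adjusted p = 0.0216), CAPN1 (-1.27, adjusted p = 0.000744), SMTN (-0.91, adjusted p = 0.017) and CKB (-0.88, adjusted p = 0.00855). HBE1 gave -2.04 (adjusted p = 0.012), with means of 8.69 in German Landrace and 6.70 in Pietrain at 35 dpc and of 2.19 and 2.24, at or near background, at 63 dpc. Genes that fell further in German Landrace were MX1 (-1.85, adjusted p = 0.045), KIF5C (-1.44, adjusted p = 0.0435) and STMN2 (-1.32, adjusted p = 0.0348). RAMP2, a receptor partner of vessels, rose more in German Landrace (0.58, adjusted p = 0.0116), and ALDH1A1, which makes retinoic acid, gave 2.89 (adjusted p = 0.00318), its Pietrain mean at 63 dpc, 2.26, being at or near background.

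Opposite signs, positive in German Landrace, were seen for NDUFS6 (1.82, adjusted p = 0.00609), FBP2 (3.30, adjusted p = 0.00299), APOC3 (4.99, adjusted p = 0.00351), ALB (5.13, adjusted p = 0.000734), MMP14 (5.33, adjusted p = 0.00668) and SERPINA1 (8.88, adjusted p = 0.0215). A second NDUFS6 probe set changed by -0.21 in German Landrace, so the sign of that gene depends on the probe set. The plasma protein genes ended at 8.19 (ALB), 7.56 (APOC3) and 12.98 (SERPINA1) in German Landrace and 2.32, 2.38 and 2.21, at or near background, in Pietrain, so that their Pietrain changes are not exact. SERPINA1 did not pass in German Landrace alone. The part of other tissue in these differences was not tested.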

How the results depend on the processing

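The total of 8756 probe sets ranged from 6781 to 8264 when any 1 of the 6 pools was left out (higher 3466 to 4149, lower 3315 to 4115). It was 7727 with all 24 arrays in the fit, 8899 with the 18 fetal arrays, 7543 with the 12 German Landrace arrays, 9060 with an intensity trend and robust prior, 9132 with dim probe sets removed and 8781 with arrays scaled to the median of detected probe sets. Scaling to hybridisation controls gave 15682, with 2624 higher and 13058 lower. Deviations of same-letter pools correlated at -0.0316, 0.0115 and -0.00764, and those of different letters at -0.0323 to 0.0396. Same-letter pools were thus no more alike by this measure, which cannot tell whether they share an origin. With the letter as a replicate block, 7173 probe sets were called (3608 higher, 3565 lower), and 971 for the breed difference. The breed difference, 1395 probe sets, gave 793 with all 24 arrays and 788 to 1489 without 1 pool. Of the 171 named genes called, 21 were lost without at least 1 pool; the cause was not tested.

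Under control scaling, ACTA2 (-0.24) and TNNT2 (-0.097) reversed, as did the medians of the lists of embryonic isoforms (-0.24), neuromuscular junction (-0.48), imprinted genes (-0.27), glycolysis (-0.090), oxidative phosphorylation (-0.23), protein degradation (-0.11), collagens (-0.014), immune cells (-0.29), interferon (-0.49), blood (-0.45) and epithelium (-0.40). That scaling moved the median of all probe sets by -0.50. Scaling to detected probe sets reversed the medians of the neuromuscular junction (-0.0085) and interferon (-0.021) lists. A second probe set was compared for 55 genes and counted as reversed where its sign was opposite and at least 1 of the 2 was called. KDR and CLDN3 had opposite signs with neither called. Reversed were COL2A1 (0.0033), COL8A1 (0.46), COMP (-0.095), DES (-2.41), MEIS2 (1.33), NDUFS6 (-0.21), NPY (0.027), POSTN (0.63), POU3F1 (0.0094), RPS25 (0.17), SLA-DRB1 (-0.011) and VWF (-0.049). Only for DES and MEIS2 were both probe sets called, in opposite directions. For the others the second probe set was not called, and the cause was not tested. Signals at or below the background ceiling, 21.3% to 27.1% of probe sets on an array, give only bounds.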

Other observations

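Families of genes that share a symbol prefix, 24 with 5 or more measured members, were looked at after values were seen; those below are given as counts with no test of the family. Of 28 measured splicing factors of the hnRNP and SR type, which bind pre-mRNA, 19 fell and 2 rose between 35 and 63 dpc, with a median change of -0.62 against 0.02 for all genes (25 lower and 1 higher under control scaling); without 1 pool, 14 to 18 fell. Of 17 snRNP and SF3 proteins of the spliceosome, 6 fell and 3 rose (11 and 1 under control scaling). Of the 6 measured subunits of the chaperonin CCT, which folds actin and tubulin, 5 fell and 0 rose (median -0.51; 5 lower under control scaling too), and 3 fell without 35 dpc pool c. Of 15 subunits of the V-ATPase, the proton pump of vesicles, 8 fell and 1 rose (median -0.32; 13 lower and 1 higher under control scaling), and 5 fell without 35 dpc pool b or c; 2 rose without 63 dpc pool a.

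Mitochondrial ribosomal proteins went the other way from the cytosolic ones in count: 21 of 58 rose and 5 fell (median 0.18), and 13 rose without 35 dpc pool b; the lower count was 2 without 35 dpc pool a and 3 without 63 dpc pool a. Their direction depends on the scaling, since 6 rose and 18 fell with arrays scaled to hybridisation controls (median -0.31). Of 15 measured LIM domain genes, several of which act in the cytoskeleton of muscle, 9 rose and 1 fell (median 0.99), and 8 rose and 3 fell under control scaling. Of 117 solute carriers 23 were higher and 16 lower (17 and 59 under control scaling), and of 37 proteasome subunits 7 were higher and 9 lower (0 and 26 under control scaling), beside 23.8% higher and 20.4% lower of all genes.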
